A study of Schmidtea mediterranea with 8 samples.

Results

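The contigs described here had more reads in cephalic ganglia after *ptc(RNAi)* than after control RNAi and were not lower after *hh(RNAi)* beyond a set bound. They were chosen by the data themselves. From the mean of each group, a ptc value was taken as log2((*ptc(RNAi)* mean + 1)/(control mean + 1)) and an hh value in the same way from *hh(RNAi)*, and a contig was kept at a mean of 100 or more over *ptc(RNAi)* and control, a ptc value at or above 1 and an hh value above -0.58. Contigs in the paper's lists of neuronal genes and of tissue markers were left out. Of 38634 contigs, 12121 reached the mean, 131 of these had the ptc value, 77 also had the hh value, and 76 were members once the one contig in those lists was set aside. Both RNAi contrasts chose the members, so their ptc and hh values are a description and were not tested.

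RNA was sequenced from 4 groups of 2 libraries of the planarian *Schmidtea mediterranea*, a flatworm. Cephalic ganglia (CNS), the paired brain lobes, were dissected from acid-killed animals of the sexual strain S2F1L3F2 fed bacteria making dsRNA for *unc-22*, *hedgehog* or *patched*, and whole head fragments came from the asexual strain CIW4 fed *unc-22* dsRNA. The *unc-22* gene is a *C. elegans* gene that the planarian genome lacks, and it served as control in both tissues. The labels give 6 to 12 feedings at intervals of 4 days. Strain, number of feedings and the amount of RNA used (less for ganglia) changed together with the tissue, so these cannot be told apart from it. Nothing in the labels says that both libraries of a group came from separate animals, so the spread between them may be technical. RNAi lowers a transcript in all cells of the animal that take up dsRNA, and the ganglia hold several cell types.

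Hedgehog (Hh) is a secreted ligand that binds the receptor Patched (Ptc). Ptc without ligand holds the transducer Smoothened (Smo) inactive, and binding of Hh releases Smo, which acts through Gli transcription factors and against their inhibitor Sufu. Loss of *ptc* therefore turns the pathway on without ligand, whereas loss of *hh* takes away the ligand. In planarians *hh* is expressed by neurons of the medial ganglia.

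Values per library are normalized reads, the reads of a library divided by its size factor with 1 scaling over all 8 libraries, and both libraries of a group are called a and b because the deposited means carry no replicate number. Between 11479783 and 18932854 reads lay on contigs in each library. The targeted transcripts were low in the libraries named for them: *hh* had 256 and 223 normalized reads in control CNS and 39.3 and 85.1 in *hh(RNAi)*, and *ptc* had 303 and 310 in control CNS and 198 and 201 in *ptc(RNAi)*. The *ptc* transcript was lower still in *hh(RNAi)*, at 159 and 117. The 70 contigs of the neuronal panel summed to between 262162 and 332896 in the 6 CNS libraries and to 31538 and 33458 in the head libraries. Among contigs over the minimum, the SD of the log2 ratio of library a to library b was 0.32 in control CNS, 0.51 in *hh(RNAi)*, 0.41 in *ptc(RNAi)* and 0.18 in head.

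The members were set apart by how their *ptc(RNAi)* libraries lay. In 56 of the 76, both *ptc(RNAi)* libraries lay above both control libraries, as they did in 17.2% of all contigs over the minimum. In 19, *ptc(RNAi)* library a lay above both controls and library b below both, against 10.7% of all contigs, so that 1 library made the group mean. The last, dd_Smed_v4_3805_0_1, overlapped with the controls. No member had library b above and library a below both controls, which held for 8.37% of all contigs. The ptc value went into the choice of members, so nothing is read from these shares. The log2 ratio of *ptc(RNAi)* library a to b ran from -1.49 to 0.70 in the 56 and from 2.44 to 8.48 in the 19. A ratio well above 0 in the 19 was fixed by the ptc bound and by how they were set apart. Nothing is therefore read from the gap between the 2 ranges.

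**Figure D1:**
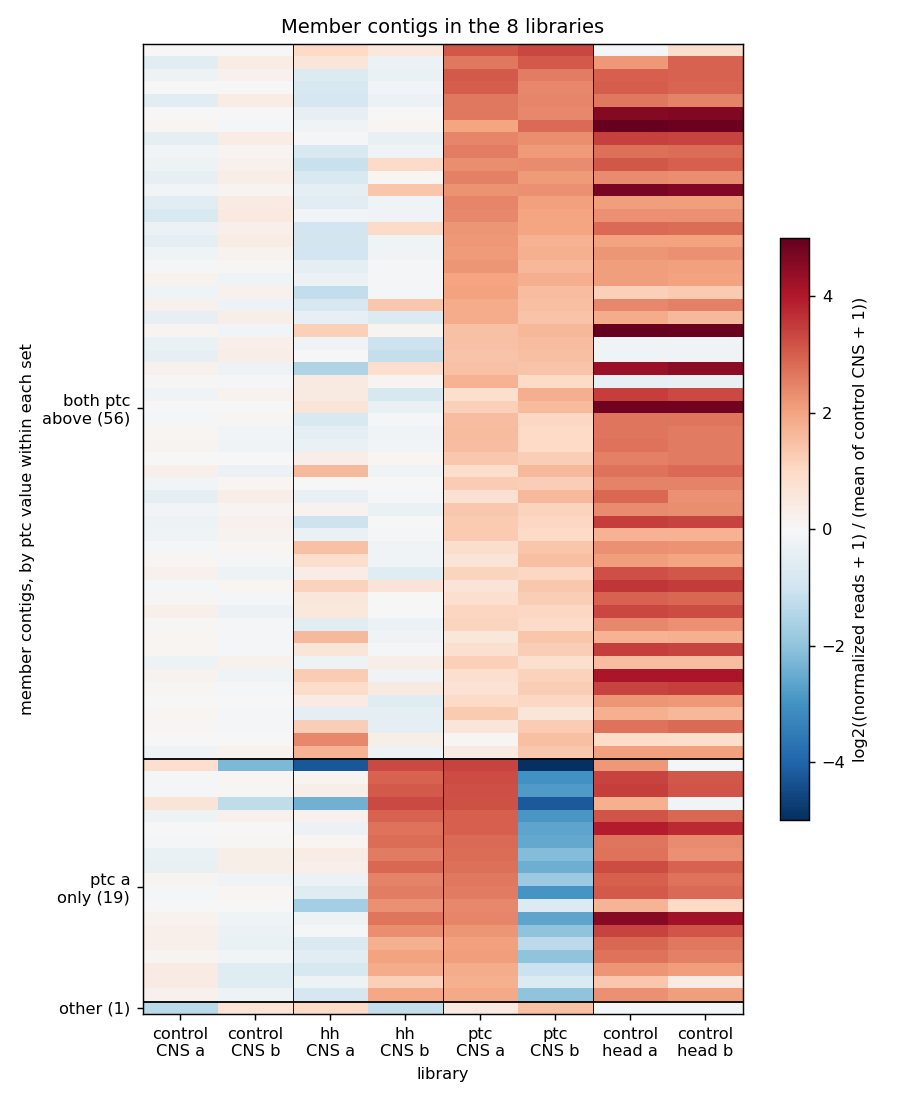
Level of each of the 76 members (rows) in the 8 libraries (columns), as log2 of normalized reads plus 1 over the mean of the control CNS libraries plus 1, with the colour scale ending at -5 and 5. In the upper 56 rows both *ptc(RNAi)* columns are red, while in the lower 19 rows *hh(RNAi)* library b and *ptc(RNAi)* library a are red and *ptc(RNAi)* library b is blue.

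Among the 56 members with both *ptc(RNAi)* libraries above the controls, 4 had an annotation by sequence similarity in the list of Hh-dependent transcripts that the study drew up from these same libraries, and 3 more were in that list with no similarity to a known protein. That list was made on these contrasts, so the overlap is not independent evidence. The ptc values of the 56 ran from 1.01 to 3.26 with a median of 1.45, against a median of -0.01 over all contigs over the minimum. The mean of both *ptc(RNAi)* libraries was between 1.96 and 9.70 times that of the controls, with a median of 2.66. In 32 of them both *ptc(RNAi)* libraries were more than 2-fold above the higher control library, which held for 0.413% of all contigs.

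The contig dd_Smed_v4_628_0_1 is similar to mouse SCO-spondin, a large secreted glycoprotein of the extracellular matrix that in vertebrates is made by a gland of the brain ventricle. It had 1339 and 1294 normalized reads in control CNS, 982 and 1298 in *hh(RNAi)*, 8087 and 7013 in *ptc(RNAi)*, and 31862 and 32354 in head fragments. The *ptc(RNAi)* libraries lay above all other CNS libraries and below both head libraries. Its ptc value was 2.55 and its hh value -0.19. The head reads of this contig allowed more than 1 split between the libraries, of which the most even was used, and its group mean does not depend on the split.

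Another matrix protein was represented by 2 contigs of the same assembly component. dd_Smed_v4_2649_0_1 is similar to human fibrillin-2, a glycoprotein of extracellular microfibrils, and had 839 and 983 normalized reads in control CNS, 935 and 927 in *hh(RNAi)*, 2223 and 2125 in *ptc(RNAi)* and 5078 and 5033 in head. Its companion dd_Smed_v4_2649_0_2 has no annotation in that list, and had 152 and 274 in control CNS, 198 and 167 in *hh(RNAi)*, 1152 and 1085 in *ptc(RNAi)* and 2299 and 2214 in head. Neither overlapped between *ptc(RNAi)* and the other CNS libraries. The ptc values were 1.29 and 2.42. The reads of the first divided by those of the second stood between 3.58 and 5.56 in control and *hh(RNAi)* ganglia, at 1.93 and 1.96 in *ptc(RNAi)*, and at 2.21 and 2.27 in head, so the ratio in *ptc(RNAi)* ganglia was nearer to that of head than to that of control ganglia. Contigs of 1 component can share sequence, and reads reported at their best alignment may have been split between them.

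Peptidyl-prolyl isomerases, enzymes that help proteins fold, were also represented by 2 members. dd_Smed_v4_348_0_1 is similar to mouse isomerase C and dd_Smed_v4_1242_0_1 to mouse isomerase B, both cyclophilins of the secretory pathway. The contig similar to isomerase C had 1222 and 2248 normalized reads in control CNS, 918 and 1511 in *hh(RNAi)*, 7727 and 5862 in *ptc(RNAi)* and 6939 and 6988 in head. The contig similar to isomerase B had 272 and 527 in control CNS, 269 and 348.3 in *hh(RNAi)*, 2172 and 1652 in *ptc(RNAi)* and 1727 and 1706 in head. In both, the control and *hh(RNAi)* libraries overlapped, the *ptc(RNAi)* libraries lay above them, and the head libraries were within the range of the *ptc(RNAi)* libraries. The ptc values were 2.00 and 2.29, and the hh values -0.50 and -0.35. The isomerase B contig held between 0.22 and 0.29 times the reads of the isomerase C contig in every one of the 8 libraries.

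Of the 3 listed members with no similarity, dd_Smed_v4_447_0_1 was higher in head than in control ganglia, while the head levels of the others lay between those of their control libraries. dd_Smed_v4_447_0_1 had 306 and 567 normalized reads in control CNS, 662 and 359 in *hh(RNAi)*, 2709 and 3629 in *ptc(RNAi)* and 1987 and 3336 in head. dd_Smed_v4_750_0_1 had 3812 and 6378 in control CNS, 5178 and 2215 in *hh(RNAi)*, 13578 and 14387 in *ptc(RNAi)* and 4398 and 4456 in head. dd_Smed_v4_2169_0_1 had 1243 and 1852 in control CNS, 1387 and 765 in *hh(RNAi)*, 4303 and 4543 in *ptc(RNAi)* and 1375 and 1383 in head. In the last pair of contigs the *ptc(RNAi)* libraries lay above the other 6 libraries, head included, and the reads of dd_Smed_v4_750_0_1 were between 2.90 and 3.73 times those of dd_Smed_v4_2169_0_1 in all 8 libraries. The ptc values were 2.90, 1.49 and 1.55 in the order given.

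**Figure D2:**
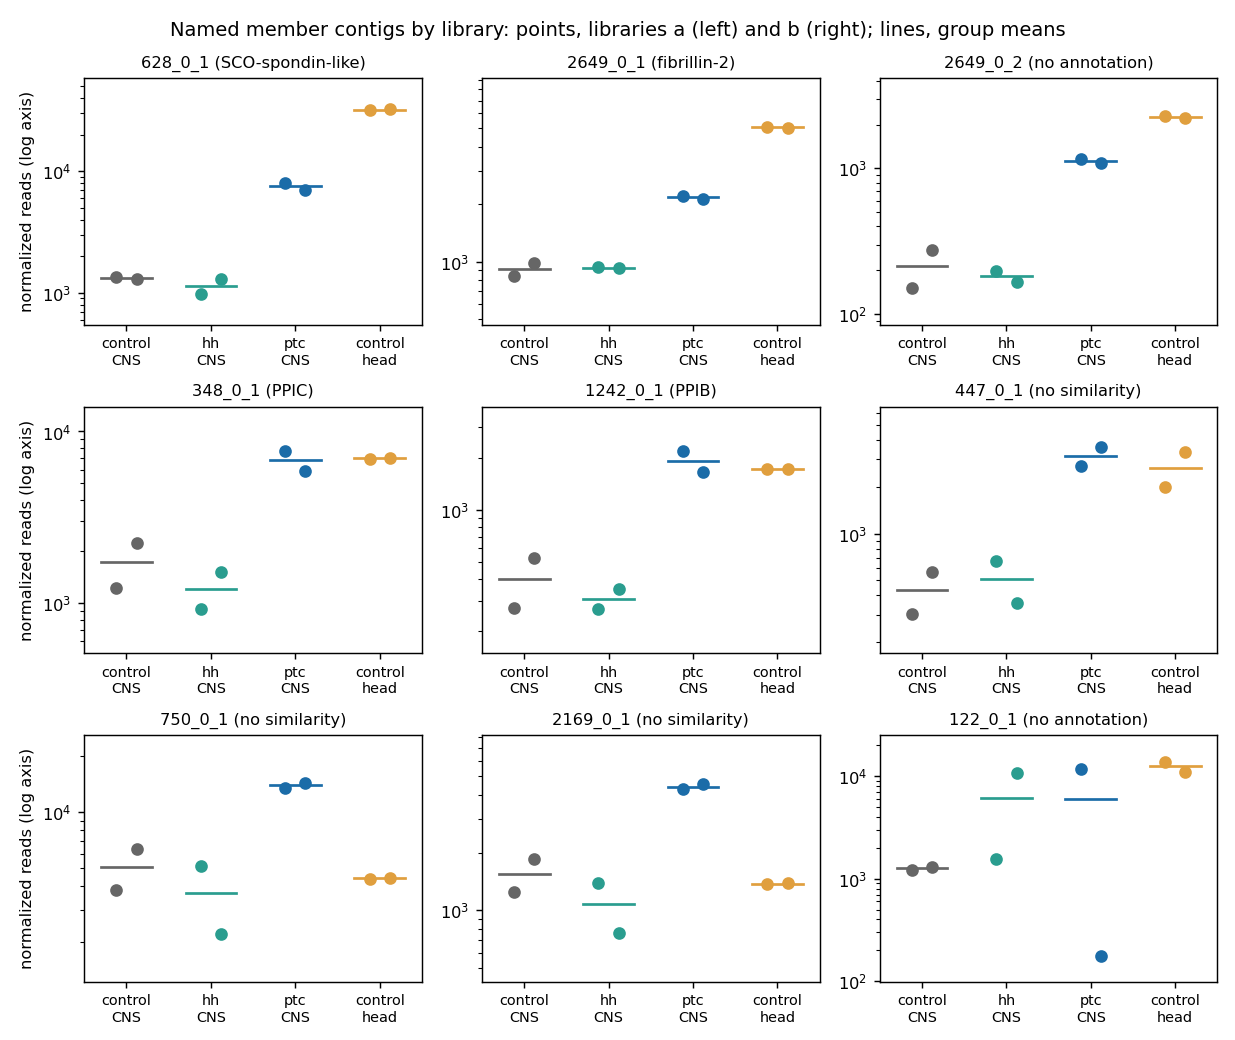
Normalized reads (log axis, a separate range for each panel) of 9 members, titled by the last 3 numbers of the contig identifier, with library a on the left and library b on the right of each group and a line at the group mean. PPIC and PPIB are the contigs similar to peptidyl-prolyl isomerases C and B. In 8 panels both *ptc(RNAi)* points lie above all control and *hh(RNAi)* points, and in dd_Smed_v4_122_0_1 the 2 *ptc(RNAi)* points stand at 11821 and 178.

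The other 69 members are in none of these lists and carry no gene name here. Of those with separate libraries, dd_Smed_v4_9342_0_1 had the highest ptc value, 3.26, from 25.1 and 26.1 normalized reads in control CNS, 51.4 and 37.4 in *hh(RNAi)*, 225 and 272 in *ptc(RNAi)* and 24.3 and 47.6 in head. It was followed by dd_Smed_v4_10655_0_1 with 2.88, from 33.4 and 46.8 in control CNS, 24.3 and 31.8 in *hh(RNAi)*, 347 and 241 in *ptc(RNAi)* and 324 and 319 in head. The *ptc(RNAi)* level was far above the head level in the first and close to it in the second.

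The 76 members belong to 70 components of the assembly, and 6 components hold 2 members each. The paired contigs dd_Smed_v4_1111_0_1 and dd_Smed_v4_1111_0_2 kept a ratio between 0.97 and 1.11 over the 8 libraries, and dd_Smed_v4_5165_0_1 and dd_Smed_v4_5165_0_2 one between 0.80 and 1.26. Such pairs may be one transcript counted as 2 members. In 5 components another contig over the minimum was no member.

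After *hh(RNAi)* the 56 had hh values from -0.55 to 1.75 with a median of 0.00, and 28 were above 0. Both *hh(RNAi)* libraries lay above both controls in 6 of the 56, and in 11 of the 76, against 10.3% of all contigs. Both lay below both controls in 8, all of them among the 56, against 16.6%. Both *ptc(RNAi)* libraries exceeded both *hh(RNAi)* libraries in 46 members, all among the 56, against 15.9%. The rule set a lower bound on the hh value, so nothing is read from these counts.

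The *hh(RNAi)* libraries were more than 2-fold apart in 20 of the 56 and in 40 of the 76, against 4.07% of all contigs over the minimum. Library a was the higher in 14 of the 20. In 13 of those 14 *ptc(RNAi)* library b was higher than library a, as it was in 5503 of the 12121 contigs over the minimum. Both RNAi contrasts stand in the rule and the letters a and b do not pair libraries across groups, so nothing is read from that count. The extreme was dd_Smed_v4_11968_0_1, singled out after its values were seen, with 153 and 152 normalized reads in control CNS, 817 and 187 in *hh(RNAi)*, 160 and 438 in *ptc(RNAi)* and 294 and 281 in head. In this contig 1 library of each RNAi group was near the controls. The 14 had ptc values from 1.01 to 1.60, and the 6 with *hh(RNAi)* library b more than 2-fold the higher had 1.48 to 2.39. The 36 members whose *hh(RNAi)* libraries were within 2-fold had 1.04 to 3.26.

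The 19 members carried by 1 *ptc(RNAi)* library were also alike in *hh(RNAi)*, with library b more than 2-fold above library a in each. Their control libraries were less alike, with a log2 ratio of a to b from -0.67 to 3.10. *ptc(RNAi)* library a held between 3.46 and 10.6 times the mean of the controls with a median of 6.23, and library b held at most 0.62 times it with a median of 0.18. *hh(RNAi)* library b held between 2.30 and 10.1 times the mean of the controls and *hh(RNAi)* library a between 0.03 and 1.31 times. The level in *hh(RNAi)* library b was between 0.67 and 1.17 times that in *ptc(RNAi)* library a in each of the 19. In 18 of them, *hh(RNAi)* library b and *ptc(RNAi)* library a were both more than 2-fold above the higher control while *ptc(RNAi)* library b was below both, which held for 24 contigs in all, or 0.198% of those over the minimum. The *ptc(RNAi)* part of this pattern follows from how the 19 were set apart and the hh bound took part in the rule, so nothing is read from that share. The hh values of the 19 ran from 0.66 to 2.32, so on group means these contigs were higher than control after both treatments. Head library a exceeded head library b in all 19, by between 1.11 and 4.71 times, and in 45.6% of all contigs over the minimum.

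**Figure D3:**
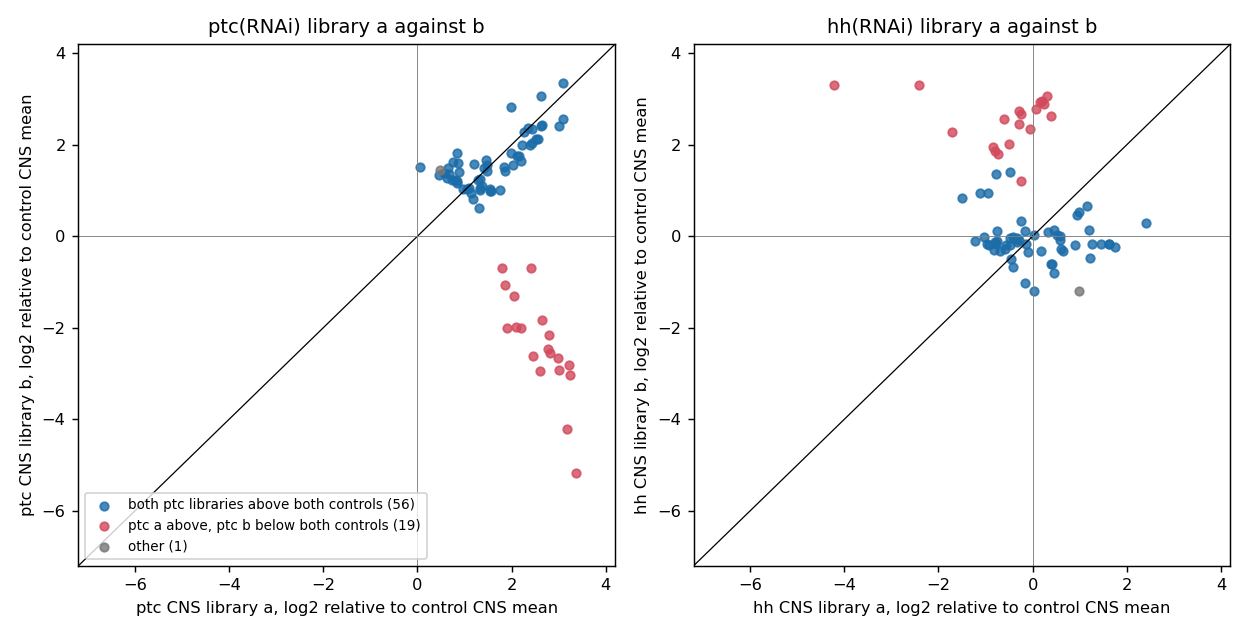
Level of each member in library a (horizontal) and library b (vertical) of *ptc(RNAi)* (left) and *hh(RNAi)* (right), both as log2 relative to the mean of control CNS, with the diagonal drawn for equal libraries. The 56 members (blue) lie near the diagonal after *ptc(RNAi)*, while the 19 (red) lie at the lower right after *ptc(RNAi)* and at the upper left after *hh(RNAi)*.

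The 2 members of highest level outside the list of Hh-dependent transcripts were both of this kind. dd_Smed_v4_122_0_1 had 1209 and 1312 normalized reads in control CNS, 1565 and 10607 in *hh(RNAi)*, 11821 and 178 in *ptc(RNAi)* and 13853 and 11064 in head. dd_Smed_v4_131_0_2 had 2886 and 2078 in control CNS, 1393 and 9608 in *hh(RNAi)*, 9312 and 617 in *ptc(RNAi)* and 12202 and 10434 in head. In each, 1 library of either RNAi group came close to head and the other was near or below the controls. Without *ptc(RNAi)* library a none of the 19 could meet the rule, since library b is below the controls in them by definition, and the ptc value of the first turned from 2.27 to -2.76 and that of the second from 1.02 to -1.95. A further such contig, dd_Smed_v4_66_0_1, held between 0.70 and 0.84 times the reads of dd_Smed_v4_122_0_1 in every library.

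The component of dd_Smed_v4_122_0_1 also holds dd_Smed_v4_122_1_1, a contig of the list annotated as a precursor of lysosomal acid lipase, the enzyme that splits cholesteryl esters and triglycerides in lysosomes. That contig had 2721 and 1717 normalized reads in control CNS, 1442 and 4849 in *hh(RNAi)*, 129 and 96.6 in *ptc(RNAi)* and 1080 and 1059 in head, and its ptc value was -4.25. Both contigs were higher in *hh(RNAi)* library b than in library a and low in *ptc(RNAi)* library b, but in *ptc(RNAi)* library a the member held 91.4 times the reads of its companion. The annotation belongs to the companion and is not given to the member.

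None of the 76 members was called higher in ganglia than in head fragments, and 66 of the 72 tested were called lower. Control CNS and head libraries, scaled as in the deposited comparison with head, were compared by limma on a log2 scale with 1 added. The p-values were adjusted over 13494 contigs by the method of Benjamini and Hochberg, and calls needed an adjusted p below 0.05 with a change beyond 2-fold. At an unadjusted p under 0.05 the number of members higher in ganglia was also 0, as it was with edgeR and DESeq2. Of all tested contigs 32.7% were called higher and 22.2% lower. The control CNS libraries also stand in the rule, where a low control level raises the ptc value, so the calls describe the members and are not independent of their choice. The ganglia to head value was log2((control CNS mean + 1)/(head mean + 1)) of the deposited means. It was below 0 in 72 of 76 members and ran from -4.91 to 0.52 with a median of -2.47, beside a median of 0.32 over all tested contigs. Fewer cells of a type in the dissected tissue and less RNA per cell cannot be told apart in such bulk samples. Both head libraries lay above all 6 CNS libraries in 50 members, against 28.1% of the contigs over the minimum, and below all 6 in 1, dd_Smed_v4_25769_0_1, against 55.1%.

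The contig similar to SCO-spondin had a log2 fold change of -4.47 ± 0.07 (SE, n = 2 per group) in ganglia against head (adjusted p = 1.18e-05 by limma). These limma values depend on the split of its head reads. The most even split makes the head libraries as alike as possible, so the SE and p may be too small. Its ganglia to head value from the means, which does not depend on the split, was also -4.47. The contig similar to fibrillin-2 was at -2.34 ± 0.09 (adjusted p = 5.28e-05 by limma), and its unannotated companion dd_Smed_v4_2649_0_2 at -3.32 ± 0.28 (adjusted p = 0.000315 by limma). The contigs similar to isomerases C and B were at -1.93 ± 0.29 and -2.04 ± 0.31, with adjusted p of 0.00238 and 0.00258 by limma. All of these were lower in control ganglia than in head. The 2 contigs that share a profile, dd_Smed_v4_750_0_1 and dd_Smed_v4_2169_0_1, were at 0.29 ± 0.25 and 0.27 ± 0.20 and were not called, with adjusted p of 0.317 and 0.243 by limma.

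The lowest values among members outside the list were those of dd_Smed_v4_6915_0_1, with 49.1 and 43.5 normalized reads in control CNS, 186 and 334 in *ptc(RNAi)* and 1711 and 1405 in head, and of dd_Smed_v4_5165_0_2, with 99.2 and 82.7 in control CNS, 250 and 290 in *ptc(RNAi)* and 3156 and 2852 in head. Their ganglia to head values were -4.91 and -4.90. The highest were those of dd_Smed_v4_25769_0_1, with 73.1 and 67.5 in control CNS, 238 and 142 in *ptc(RNAi)* and 52.9 and 54.4 in head, and of dd_Smed_v4_3805_0_1, with 207 and 851 in control CNS, 740 and 1444 in *ptc(RNAi)* and 493 and 503 in head. The ganglia to head value of the last pair was 0.52 and 0.22, and while the first was under the minimum and not tested, the second was not called. The log2 fold change of dd_Smed_v4_3805_0_1 was -0.11 (adjusted p = 0.884 by limma) and rested on which control library was used. It was 0.91 without control CNS library a and -1.13 without library b. Each of these fits holds 1 CNS library and so measures no spread between ganglia libraries.

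Set against head, the *hh(RNAi)* ganglia gave fewer calls, on the 1 scaling over all 8 libraries and so not on that of the control test. Here 48 of 73 members tested were called lower in ganglia and none higher (0 also at an unadjusted p under 0.05), while 24.2% and 27.3% of all 13055 contigs tested were called lower and higher. Of the 56 members with separate *ptc(RNAi)* libraries 47 were called lower, and of the 19 carried by 1 library 1 was. The log2 fold change of the 19 in this comparison was nevertheless below 0 in all of them and below -1 in 16, with a median of -1.61. In all 19 the *hh(RNAi)* libraries were more than 2-fold apart. In the 56, head held a median of 6.01 times the control CNS mean and a median of 2.07 times the *ptc(RNAi)* mean. Both head libraries lay above all 6 CNS libraries in 40 of the 56, against 28.1% of the contigs over the minimum. In some, such as dd_Smed_v4_750_0_1, dd_Smed_v4_2169_0_1, dd_Smed_v4_9342_0_1 and dd_Smed_v4_25769_0_1, the *ptc(RNAi)* mean lay above head and farther from it than the control mean. Both ratios share the head libraries, and both CNS means also stand in the rule.

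**Figure D4:**
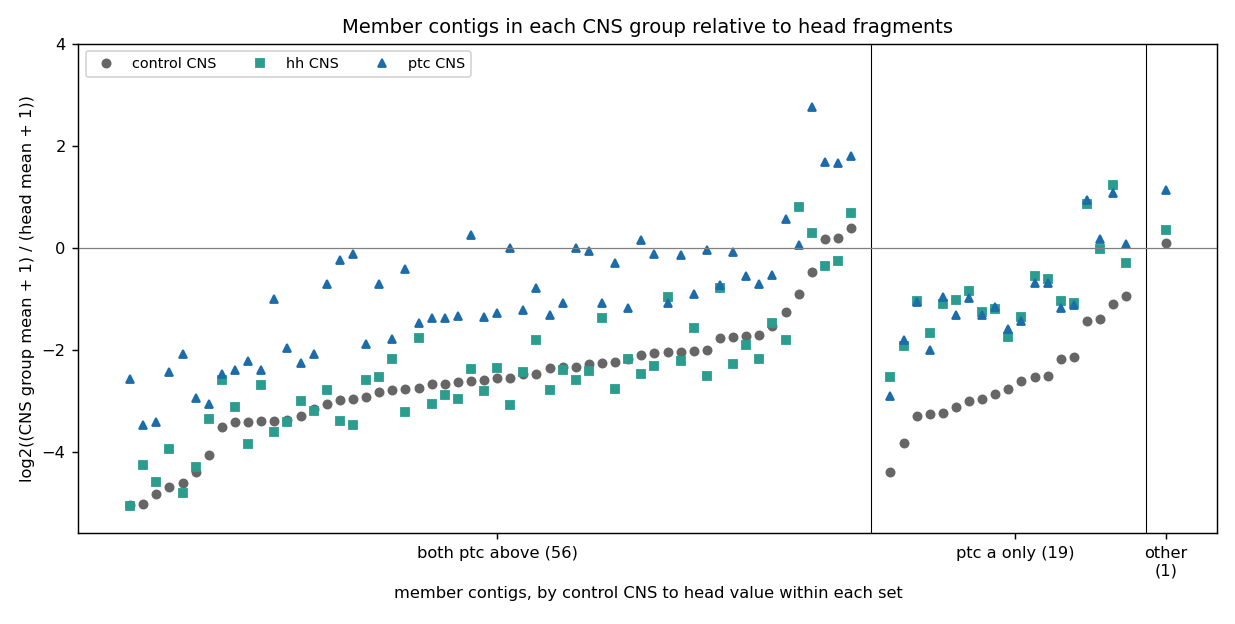
Log2 of the mean of each CNS group plus 1 over the mean of head fragments plus 1, with 1 scaling over all libraries, for every member ordered by its control value within each set. Most points lie below the line at 0, where ganglia equal head, and in the 56 the *ptc(RNAi)* points lie above the control points, while in the 19 *hh(RNAi)* and *ptc(RNAi)* points lie together.

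Markers of other tissues were examined because most members were higher in head than in ganglia. The 20 markers fixed for neoblasts, parenchyma, protonephridia, photoreceptors, body rim, muscle, gut, pharynx and tail summed to 17924 and 22381 normalized reads in control CNS, 15244 and 18783 in *hh(RNAi)*, 26055 and 23192 in *ptc(RNAi)* and 102859 and 103739 in head, and none was at 0 in every library. The sum was thus highest among ganglia in *ptc(RNAi)*. Without the neoblast markers *smedwi-1* and *smedwi-2* it was 11197 and 13374 in control CNS, 9101 and 13256 in *hh(RNAi)* and 12720 and 11508 in *ptc(RNAi)*, which overlap. Of the 20, 2 had a ptc value at or above 1. One was *smedwi-1*, a gene of planarian stem cells, with 1443 and 1894 normalized reads in control CNS, 776 and 787 in *hh(RNAi)* and 4530 and 2929 in *ptc(RNAi)*. Its hh value of -1.07 was below the bound.

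The other was marginal adhesive gland-1 (*mag-1*), a marker of the gland cells at the body rim and the one contig that met every bound and was left out for standing in the marker list. It had 451 and 474 normalized reads in control CNS, 210 and 955 in *hh(RNAi)*, 1274 and 1158 in *ptc(RNAi)* and 11196 and 11517 in head, with a ptc value of 1.43 and a ganglia to head value of -4.48. Its *ptc(RNAi)* libraries were alike, unlike those of the 19. Of the 20 markers, *agat-1*, expressed in the descendants of stem cells, was the one with *ptc(RNAi)* library a more than 2-fold above library b (with 1 added, on the scaling of the deposited table), at 831 and 394, beside 367 and 996 in *hh(RNAi)* and 803 and 1257 in control CNS. The part of other tissues in the members' values was not tested.

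Of the Hh pathway, none of the 7 contigs for *hh*, *ptc*, *smo*, *sufu*, *gli-1*, *gli-2* and *gli-3* had a ptc value at or above 1. Not all of them could have shown one. The *ptc* transcript was itself the target of *ptc(RNAi)*, and *gli-2* had 0 reads in control and *ptc(RNAi)* ganglia. *gli-3* was under the minimum, with a mean of 59.7 over *ptc(RNAi)* and control. The inhibitor *sufu* had 200 and 213 normalized reads in control CNS and 269 and 224 in *ptc(RNAi)*, and the transcription factor *gli-1* had 147 and 146 in control CNS and 154 and 175 in *ptc(RNAi)*, so that in both the *ptc(RNAi)* libraries lay above the controls by a small margin. In control ganglia against head 5 of the 7 were tested, of which *hh* was called higher (log2 fold change 5.61 ± 0.37, adjusted p = 0.000152 by limma), *gli-1* was called lower (-2.09 ± 0.08, adjusted p = 5.06e-05 by limma), and *ptc*, *smo* and *sufu* changed by less than 2-fold. The genes *if-1* and *cali*, expressed in planarian glia, had ptc values of 0.18 and 0.26 and hh values of -2.09 and -2.80, so both were outside the members on either bound.

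The bounds passed through a dense range of values. Just inside the ptc bound stood dd_Smed_v4_1665_0_1 at 1.01 and just outside it dd_Smed_v4_2627_0_1 at 0.99, a contig of the list similar to human MYLIP, a ubiquitin ligase, with 1053 and 1184 normalized reads in control CNS and 2238 and 2112 in *ptc(RNAi)*. Just inside the hh bound stood dd_Smed_v4_7340_0_1 at -0.55 and just outside dd_Smed_v4_6816_0_1 at -0.59. Among contigs of the list that missed the hh bound alone, the nearest was dd_Smed_v4_331_0_1, with no similarity, at -0.82 and a ptc value of 1.26. Just inside the minimum stood dd_Smed_v4_1489_0_1 with a mean of 105 and just outside dd_Smed_v4_12815_0_1 with 96.3. The first of these had 0 reads in *ptc(RNAi)* library b and 372 normalized reads in library a.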

How the data were processed

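Polyadenylated RNA was made into Illumina TruSeq libraries. The submitters' processing notes name CASAVA, Bowtie2, SAMtools and DESeq2, and their versions are not given in the sources used here. The authors mapped reads to a transcriptome assembly of *S. mediterranea*, kept the best alignment and deposited 3 tables of contigs, 1 per comparison. The signal columns deposited by the authors hold the mean over both libraries of a group, after division by size factors, with no unit of length. Their columns of fold change, log2 fold change, p-value and adjusted p-value were not used. One row that names no contig held 0 reads.

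Every mean combines the reads of 2 libraries, each read worth a fixed step in its library, and whole reads were recovered for 100% of contigs in every group with a relative misfit of at most 9.43e-10. The control reads recovered from both RNAi tables were identical in all 38634 contigs. Those recovered from the comparison with head, which keeps fewer digits, were identical to these in 38629, and 19 control contigs there allowed several splits. In head, 55 contigs allowed several splits, 1 of them a member. The recovery was tested on simulated data.

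The members were found from the deposited means. The members and all lists were chosen with earlier results of these data known. Overlap of RNAi libraries with control libraries was counted with the size factors of the deposited tables. Counts that involve head libraries, or that set *ptc(RNAi)* against *hh(RNAi)*, used the 1 scaling over all 8 libraries. The test of control ganglia against head used limma 3.58.1 under R 4.3.3 and fitted a variance trend on log2(normalized reads + 1). For it, reads were divided by the size factors of the deposited comparison with head, as they are in the ganglia to head values. The levels printed for each library use the 1 scaling over all 8 libraries and do not give these fold changes exactly. *hh(RNAi)* ganglia were set against head on the 1 scaling. Contigs with a mean of at least 100 over both groups were tested, and the fit was tried on simulated data. limma had been set as the main test unless the authors gave counts of each library. They gave means, so limma was kept, and it used the same recovered reads as edgeR and DESeq2. An exact permutation test (two-sided) of 2 libraries against 2 has 0.333 as its smallest p, and none was run. edgeR 4.0.16 and DESeq2 1.42.0 on the recovered reads, other pseudocounts, minimums, thresholds and scalings, and each library left out in turn were the alternatives. Python 3.11.15 with numpy 2.4.6, pandas 2.3.3 and matplotlib 3.10.9 did the rest.

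The contigs named are the members in the study's list of Hh-dependent transcripts, that list's nearest misses on 1 bound, members of a component shared with its contigs, at most 2 other members at each extreme of ptc value, level and ganglia to head value, Hh pathway and glial genes, and the contigs next to each bound. Any other is said to be chosen after its values were seen or stands for a pair or a count. Contig sequences were not used here, so levels are not per length.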

Additional observations from a re-analysis of the deposited data

How the results depend on the processing

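The number of members followed the rule's bounds. It was 124 at a minimum of 50, 42 at 200 and 14 at 1000, 37 at a ptc value of 1.5 or more and 207 at 0.58 or more, and 48 at an hh value above 0. With each library left out in turn it ran from 67 to 107. Without *ptc(RNAi)* library a the rule found 102 contigs, of which 55 were members, 54 from the 56 with separate libraries and 0 from the 19, which have library b below the controls by definition. Without *hh(RNAi)* library b, 56 members were found again, 13 of them from the 19. With a library left out the ptc value of dd_Smed_v4_122_0_1 ran from -2.76, without *ptc(RNAi)* library a, to 3.24, without library b, and that of dd_Smed_v4_131_0_2 from -1.95 to 1.92 likewise. Members called lower in ganglia than in head fell to 24 at a minimum of 1000, where 26 were tested. No member was called higher under any of the 11 alternatives run. Those with a library left out hold 1 library in a group, so their calls do not measure its spread. The median ganglia to head value was -2.79 after subtracting the median over the contigs tested, and from -2.55 to -2.43 with a library left out. It was -2.30 with *hh(RNAi)* ganglia in place of control, where the scaling also changed to the 1 over all 8 libraries. TMM scaling gave 76 members, 56 with both *ptc(RNAi)* libraries above the controls and 11 with both *hh(RNAi)* libraries above. No paired analysis was possible because the columns carry no replicate numbers. The authors' minimum in RPKM could not be applied without contig lengths, and low contigs are limited by counting error, 34 of the members having a mean under 200.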

Other observations

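Beyond the members, 6 contigs had the pattern of 18 of the 19, with *hh(RNAi)* library b and *ptc(RNAi)* library a more than 2-fold above the higher control and *ptc(RNAi)* library b below both. Their ptc values were under the bound of 1. The nearest to the bound was dd_Smed_v4_73_0_1 at 0.99. One of them, dd_Smed_v4_131_0_1, shares the component of the member dd_Smed_v4_131_0_2 and had a ptc value of 0.86. These contigs were picked out after their values were seen, and the cause was not tested.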
